A study of Homo sapiens with 12 samples.

Results

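The genes of autophagy described here were followed through the mRNA sequencing of THP-1 and U-937 cells, and they were taken by name as 10 of the 36866 genes in the deposited table: SQSTM1, MAP1LC3B, GABARAPL1, ULK1, WIPI1, BECN1, ATG5, ATG16L1, TFEB and FLCN. THP-1 and U-937 are human acute myeloid leukemia lines of monocytic type with complex karyotypes, and each is a single established line, so the libraries of a group are samples of the same line. The groups were THP-1 with DMSO, THP-1 with honokiol, U-937 with DMSO and U-937 with honokiol, each of 3 libraries taken after 24 h, and DMSO, the solvent, was given at 0.1%. Honokiol is a natural small molecule from magnolia bark. The labels list doses of 20 and 35 μM without naming the line, so the dose of each sequenced group is not known from them. If the dose differed between the lines, line and dose cannot be told apart where the lines are compared with honokiol. The labels do not say that the libraries came from separate cultures, so the p-values measure the spread between these libraries, which may be technical.

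Autophagy encloses cytoplasm, damaged organelles or protein aggregates in a double membrane, the autophagosome, which fuses with the lysosome so that its content is digested. The ULK1 kinase starts the process, the class III phosphatidylinositol 3-kinase complex with BECN1 marks the growing membrane with a lipid that WIPI proteins bind, and ATG5 with ATG16L1 couples the ATG8 proteins, among them the LC3 and GABARAP families, to that membrane. SQSTM1, also called p62, is a receptor that carries ubiquitinated cargo to LC3 and is itself digested, so its mRNA and its protein need not move together. TFEB is a transcription factor of lysosomal and autophagy genes that is controlled largely by where it sits in the cell, and FLCN is part of the lysosomal machinery that holds it in the cytoplasm.

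The libraries held 57406966 to 75065752 estimated counts each. The DMSO libraries numbered 1 stood apart in both lines, where mitochondrial genes held 13.7% (THP-1) and 12.6% (U-937) of the counts; the range over the remaining 10 libraries was 5.605% to 7.55%. Genes of monocytic cells were expressed, with SPI1 at 53.3 to 142 FPKM (fragments per kilobase of transcript and per size of the library) and CD68 at 34.8 to 321 FPKM over all libraries, while the T cell gene CD3E reached at most 0.04 FPKM and the epithelial gene EPCAM at most 0.11 FPKM. The myeloid gene MPO was at 20.2 to 35.3 FPKM in THP-1 and at 0.06 to 0.17 FPKM in U-937.

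The first comparison asked which of the 10 genes differed between honokiol and DMSO in each line. None passed the test: the adjusted p-value was under 0.05 for 0 of 10 genes in THP-1 and for 0 of 10 in U-937, in edgeR's quasi-likelihood test, adjusted by the Benjamini-Hochberg method over all genes tested in that line. The background was low as well, since the test called 0.0411% of the 14600 genes tested for THP-1, and 0.0947% of the 13726 tested for U-937. At an unadjusted p under 0.05, 4 of the 10 genes were found in THP-1, all with the higher mean under honokiol (SQSTM1, WIPI1, GABARAPL1 and TFEB), where 13.1% of all tested genes reached that level and 6.84% with the higher mean, and 1 of the 10 in U-937 (FLCN, also higher), where 16.7% did and 8.25% with the higher mean. The unadjusted count in THP-1 fell to 2 (SQSTM1 and WIPI1) without DMSO library 1, DMSO library 2 or honokiol library 3, and that in U-937 was 0 without DMSO library 3, honokiol library 2 or honokiol library 3 and 3 (FLCN, MAP1LC3B and SQSTM1) without honokiol library 1. The background moved too. In the same order it was 1899 of 14416, 1557 of 14295 and 871 of 14234 tested genes in THP-1. For U-937 it was 2209 of 13426, 1638 of 13333, 1472 of 13419 and 1720 of 13380. In THP-1 the median log2 fold change was 0.20 over the 10 genes and -0.001 over all tested genes, and in U-937 these medians were 0.18 and 0.02. All 10 genes passed the filter on low values in both lines. These are bulk libraries, in which fewer cells that express a gene and less of its RNA per cell cannot be told apart. Groups did not overlap in FPKM for 4 of the 10 genes in THP-1, against 20.6% of tested genes, and for 2 of the 10 in U-937, against 24.2%.

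**Figure D1:**
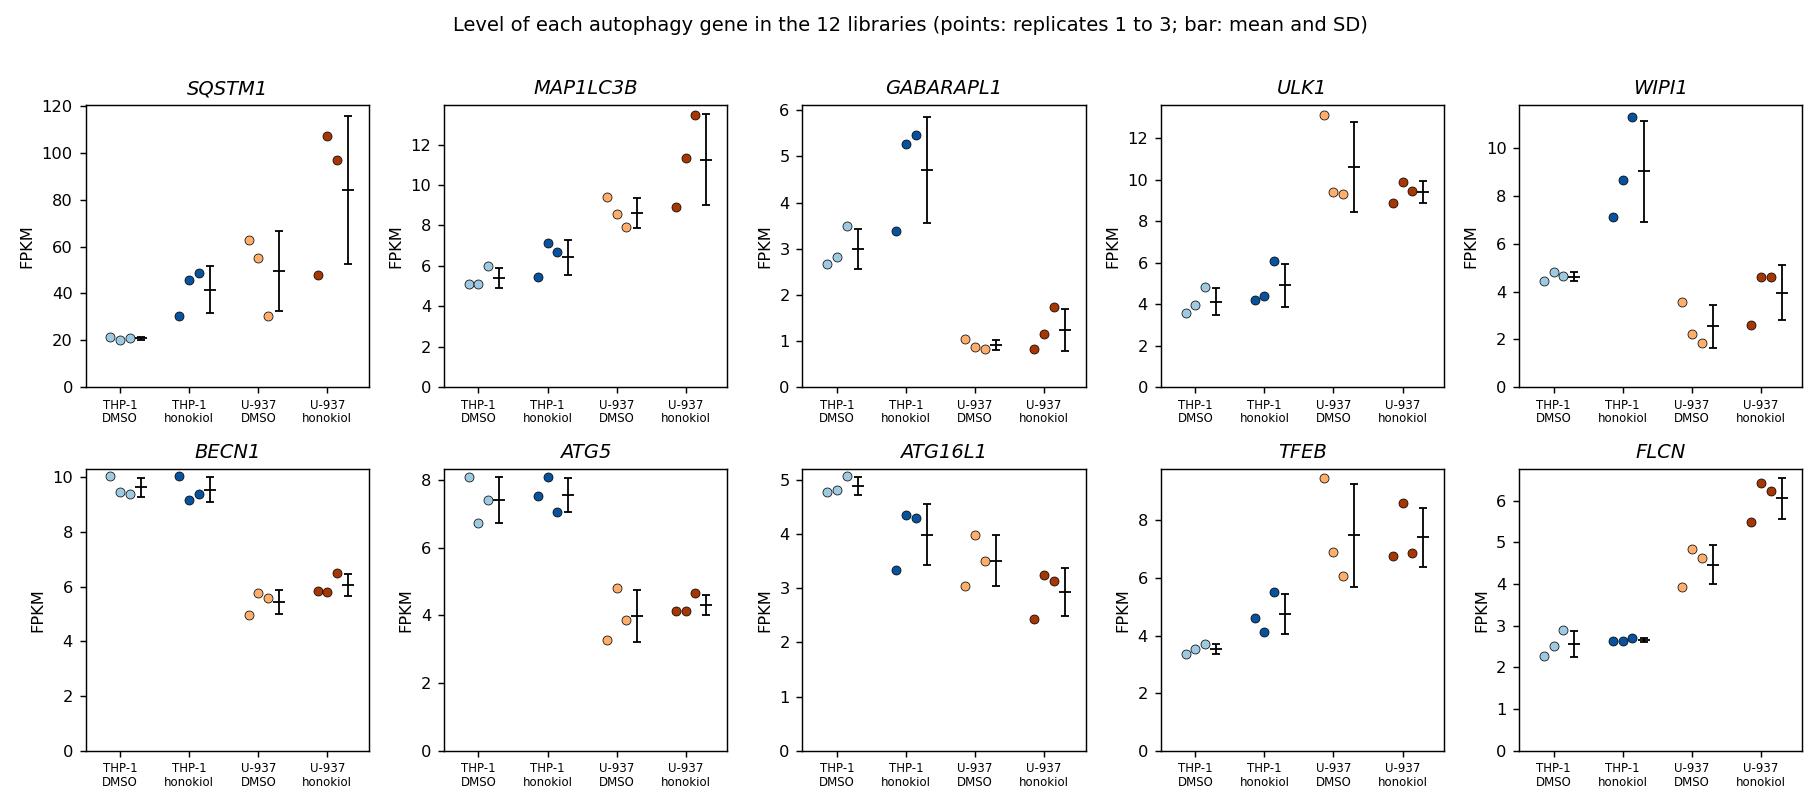
FPKM (vertical axes, from 0) of the 10 genes in the 12 libraries, with THP-1 in blue and U-937 in orange, light for DMSO and dark for honokiol; points are libraries 1 to 3 from left to right, and the bar beside them is the mean with its SD. SQSTM1 and WIPI1 of THP-1 lie higher in each honokiol library than in any DMSO library, and GABARAPL1, BECN1 and ATG5 lie lower in all U-937 libraries than in any THP-1 library.

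SQSTM1 (ENSG00000161011, chr5:179806398-179838078, plus strand) was the most abundant of the 10 genes in every library and had the largest fold change of the 10 in both lines. In THP-1 it stood at 21.4, 20.1 and 21.1 FPKM in the DMSO libraries and at 30.3, 45.8 and 48.9 FPKM in the honokiol libraries. The honokiol libraries were all higher, and library 1 was the lowest of them. The means were 20.9 ± 0.688 FPKM with DMSO (SD, n = 3) and 41.6 ± 9.96 FPKM with honokiol (SD, n = 3). The log2 fold change was 0.94 with a standard error of 0.19 and a 95% interval of 0.50 to 1.38 (adjusted p = 0.157, edgeR's quasi-likelihood test). DESeq2 called it (adjusted p = 0.00237), and so did edgeR when the THP-1 honokiol library 1 was left out (log2 fold change 1.12, adjusted p = 0.0449). Of the 14600 genes tested in THP-1, DESeq2 called 505. In U-937 it stood at 62.8, 55.3 and 30.4 FPKM with DMSO and at 47.9, 107 and 96.9 FPKM with honokiol. These groups overlapped, since honokiol library 1 was lower than 2 of the 3 DMSO libraries. The log2 fold change in U-937 was 0.66 with a standard error of 0.36 (adjusted p = 0.404, edgeR's quasi-likelihood test). MGAT4B and MRNIP overlap SQSTM1 on the opposite strand, and whether the counting used strand is not given in the sources used here.

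WIPI1 (ENSG00000070540, chr17:68420948-68457499, minus strand), which binds the lipid made by the class III kinase on the forming membrane, gave the second largest fold change in both lines. Its THP-1 libraries read 4.44, 4.80 and 4.63 FPKM with DMSO and 7.12, 8.66 and 11.3 FPKM with honokiol. Every honokiol library was higher, again with library 1 as the lowest. The log2 fold change was 0.90 with a standard error of 0.19 (adjusted p = 0.162, edgeR's quasi-likelihood test), and DESeq2 called it (adjusted p = 0.00285). In U-937 WIPI1 read 3.57, 2.21 and 1.83 FPKM with DMSO and 2.61, 4.59 and 4.62 FPKM with honokiol. The groups overlapped because of DMSO library 1, which had a high mitochondrial share, and honokiol library 1. The log2 fold change there was 0.53 with a standard error of 0.34 (adjusted p = 0.469, edgeR's quasi-likelihood test). Its paralog WIPI2 gave -0.06 in THP-1 and 0.03 in U-937 on the same scale. ARSG overlaps WIPI1 on the opposite strand, and MIR635 lies within it on the same strand.

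The ATG8 proteins GABARAPL1 and MAP1LC3B, which coat the autophagosome and bind receptors, had a higher mean with honokiol in both lines. GABARAPL1 (ENSG00000139112, chr12:10212458-10223128) read 2.66, 2.82 and 3.49 FPKM in the THP-1 DMSO libraries and 3.39, 5.27 and 5.47 FPKM in the honokiol libraries. These overlapped through honokiol library 1, and the log2 fold change was 0.60 with a standard error of 0.22 (adjusted p = 0.317, edgeR's quasi-likelihood test). The U-937 libraries were at 1.04, 0.86 and 0.83 FPKM with DMSO and at 0.83, 1.14 and 1.73 FPKM with honokiol, also overlapping. MAP1LC3B (ENSG00000140941, chr16:87383953-87404779), which encodes LC3B, read 5.11, 5.12 and 5.99 FPKM with DMSO and 5.46, 7.11 and 6.68 FPKM with honokiol in THP-1, a log2 fold change of 0.19 with a standard error of 0.15. Its U-937 libraries read 9.40, 8.55 and 7.93 FPKM with DMSO and 8.94, 11.4 and 13.5 FPKM with honokiol, a log2 fold change of 0.29 with a standard error of 0.19. Both lines overlapped, with honokiol library 1 within the DMSO range each time. MAP1LC3B had adjusted p-values of 0.609 (THP-1) and 0.470 (U-937) (edgeR's quasi-likelihood test).

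Reads of MAP1LC3B could be shared with its near-identical copy MAP1LC3B2. The longest protein-coding transcripts of the 2 genes in GENCODE 29 (2688 and 660 bases) aligned over 601 positions, of which 584 were identical (97.2%), with an unbroken identical run of 307 bases. MAP1LC3B2 was listed at 0.17 to 0.77 FPKM, far below MAP1LC3B, but how the authors' counting assigned shared reads is not given, so the level of MAP1LC3B is uncertain to that extent. GABARAPL3, the copy of GABARAPL1, was listed at 0 to 0.11 FPKM.

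TFEB (ENSG00000112561, chr6:41683978-41736259, minus strand) showed opposite signs in the lines. In THP-1 it read 3.36, 3.54 and 3.69 FPKM with DMSO and 4.60, 4.14 and 5.52 FPKM with honokiol, without overlap. The log2 fold change was 0.37 with a standard error of 0.15 (adjusted p = 0.364, edgeR's quasi-likelihood test). The U-937 libraries read 9.49, 6.89 and 6.06 FPKM with DMSO and 6.77, 8.60 and 6.88 FPKM with honokiol, which overlapped fully. The log2 fold change there was -0.12 with a standard error of 0.22, and it was 0.13 when DMSO library 1, the highest, was left out. The test of the difference between the lines gave -0.50 for U-937 minus THP-1, with a 95% interval of -1.10 to 0.10 (adjusted p = 0.603, edgeR's quasi-likelihood test), so the lines were not shown to differ in the response of TFEB.

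FLCN (ENSG00000154803, chr17:17212212-17237188, minus strand) gave the reverse arrangement. Its U-937 libraries read 3.93, 4.83 and 4.63 FPKM with DMSO and 5.49, 6.43 and 6.24 FPKM with honokiol. All honokiol libraries were higher, and the log2 fold change was 0.35 with a standard error of 0.13 (adjusted p = 0.241, edgeR's quasi-likelihood test). In THP-1 it read 2.27, 2.50 and 2.89 FPKM with DMSO and 2.64, 2.62 and 2.71 FPKM with honokiol, so the honokiol libraries lay within the DMSO range and the log2 fold change was 0.00 with a 95% interval of -0.31 to 0.32. The difference between lines was 0.34 with a 95% interval of -0.03 to 0.71 (adjusted p = 0.573, edgeR's quasi-likelihood test).

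Of the genes that start and build the autophagosome, ULK1 (chr12:131894622-131923150) gave fitted log2 values of 0.20 for THP-1 and -0.27 for U-937, with a standard error of 0.18 in both. Its U-937 DMSO library 1 read 13.1 FPKM, above the 8.88 to 9.90 FPKM of the other 5 U-937 libraries. BECN1 (chr17:42810134-42833332) gave -0.07 in THP-1 and 0.07 in U-937, and -0.01 averaged over both lines, where its 95% interval of -0.19 to 0.17 was the narrowest of the 10 genes. In U-937 its FPKM values did not overlap (4.96, 5.77 and 5.59 with DMSO; 5.86, 5.79 and 6.51 with honokiol), although its fitted fold change, which uses another scaling of the libraries, was near 0. ATG5 (chr6:106045423-106325791) gave -0.03 in THP-1 and 0.03 in U-937. ATG16L1 (chr2:233210051-233295674), which brings the conjugation machinery to the membrane, was the only gene of the 10 with a lower fitted level under honokiol in both lines. It read 4.79, 4.82 and 5.08 FPKM with DMSO and 3.34, 4.35 and 4.30 FPKM with honokiol in THP-1. Those groups did not overlap, and the log2 fold change was -0.35 with a standard error of 0.15 (adjusted p = 0.387, edgeR's quasi-likelihood test). The U-937 libraries read 3.04, 3.98 and 3.51 FPKM with DMSO and 2.43, 3.25 and 3.13 FPKM with honokiol, which overlapped, at a log2 fold change of -0.34 with a standard error of 0.18.

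Averaged over both lines in a fit of the 12 libraries, 0 of the 10 genes had an adjusted p under 0.05 by edgeR's quasi-likelihood test, where 2.65% of 16283 tested genes did. At an unadjusted p under 0.05 there were 4 of the 10, SQSTM1, WIPI1 and GABARAPL1 with higher means and ATG16L1 with a lower mean, where 20.6% of tested genes reached that level. The mean log2 fold change was 0.79 for SQSTM1 (95% interval 0.29 to 1.29, adjusted p = 0.0886), 0.71 for WIPI1 (0.26 to 1.16, adjusted p = 0.0901), 0.47 for GABARAPL1 (0.04 to 0.90, adjusted p = 0.207) and -0.35 for ATG16L1 (-0.60 to -0.10, adjusted p = 0.112). DESeq2 called 3 of them, SQSTM1 (adjusted p = 0.0159), WIPI1 (adjusted p = 0.0213) and ATG16L1 (adjusted p = 0.0389). Its background was higher as well, with 1537 of the 16283 tested genes called by DESeq2 and 431 by edgeR. In edgeR, SQSTM1 was called without the U-937 honokiol library 1 (0.93, adjusted p = 0.0439), and WIPI1 without the U-937 DMSO library 1 (0.89, adjusted p = 0.0370). The response differed between the lines for 0 of the 10 genes at an adjusted p under 0.05, and for 0 of 10 at an unadjusted p under 0.05, where 0.111% and 9.37% of tested genes did. By DESeq2 it also differed for 0 of the 10 at an adjusted p under 0.05, where 248 of 16283 tested genes did.

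**Figure D2:**
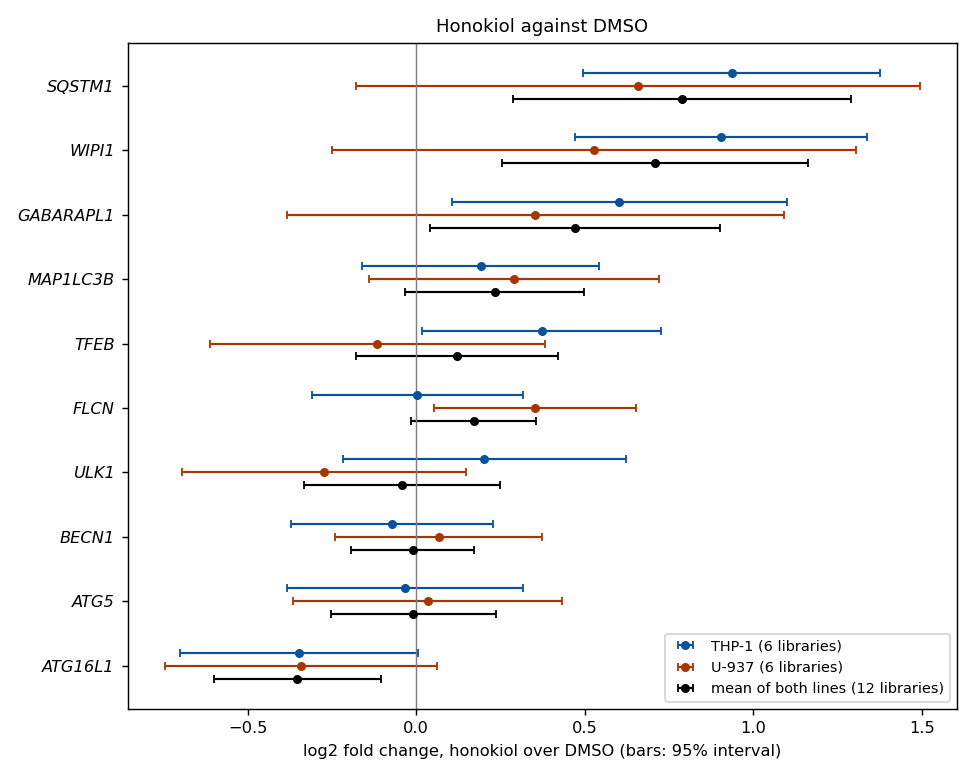
Log2 fold change of honokiol over DMSO (horizontal axis) with its 95% interval for each of the 10 genes in THP-1 (blue), in U-937 (orange) and averaged over both lines (black). The intervals of SQSTM1, WIPI1 and GABARAPL1 lie above 0 in THP-1 and in the average but reach below 0 in U-937, while ATG16L1 averages -0.35.

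The second comparison was between the lines. All 10 genes differed, with DMSO and with honokiol alike (adjusted p under 0.05 by edgeR's quasi-likelihood test), but so did 52.9% of tested genes with DMSO and 51.4% with honokiol. With DMSO, 5 of the 10 were higher in U-937 and 5 were lower, where 24.4% of tested genes were called higher and 28.5% lower. The groups did not overlap for any of the 10 genes with DMSO, against 56.7% of tested genes, and for 9 of the 10 with honokiol, against 64.5%, the exception being SQSTM1.

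Higher in U-937 were ULK1, SQSTM1, TFEB, FLCN and MAP1LC3B. ULK1 averaged 10.6 ± 2.17 FPKM in U-937 with DMSO (SD, n = 3) and 4.11 ± 0.652 FPKM in THP-1 (SD, n = 3), a 2.53-fold difference (log2 1.34, 95% interval 0.92 to 1.76, adjusted p = 1.00e-04, edgeR's quasi-likelihood test). SQSTM1 averaged 49.5 ± 16.97 FPKM in U-937 and 20.9 ± 0.688 FPKM in THP-1 (SD, n = 3 each), a 2.31-fold difference. TFEB averaged 7.48 ± 1.79 FPKM in U-937 and 3.53 ± 0.165 FPKM in THP-1 (SD, n = 3 each), a 2.07-fold difference. FLCN was 1.69-fold higher and MAP1LC3B 1.55-fold higher in U-937. With honokiol, the differences were 1.80-fold for ULK1, 1.89-fold for SQSTM1, 1.47-fold for TFEB, 2.14-fold for FLCN and 1.65-fold for MAP1LC3B.

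Lower in U-937 were GABARAPL1, ATG5, WIPI1, BECN1 and ATG16L1. GABARAPL1 averaged 0.910 ± 0.114 FPKM in U-937 and 2.99 ± 0.440 FPKM in THP-1 (SD, n = 3 each), 3.35-fold lower with DMSO, and it was 4.02-fold lower with honokiol, the widest gap of the 10 genes. ATG5 was 1.94-fold lower with DMSO (3.97 ± 0.772 against 7.41 ± 0.680 FPKM, SD, n = 3 each). BECN1 was 1.83-fold lower (5.44 ± 0.425 against 9.64 ± 0.351 FPKM, SD, n = 3 each), WIPI1 1.86-fold lower and ATG16L1 1.44-fold lower. With honokiol WIPI1 was 2.43-fold lower.

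Some of these calls rested on particular libraries. With DMSO, WIPI1 lost its call when U-937 DMSO library 2 or 3 was left out (log2 -0.79 and -0.69), and ATG16L1 lost it without U-937 DMSO library 1 (log2 -0.47). With honokiol, SQSTM1 lost its call without THP-1 honokiol library 1 or 2 (log2 0.73 and 0.99) or U-937 honokiol library 2 or 3 (0.72 and 0.79), and TFEB lost it without the same 4 libraries (0.52, 0.46, 0.45 and 0.59). ATG16L1 with honokiol lost it without THP-1 honokiol library 2 or 3 (-0.47 and -0.49) or U-937 honokiol library 1 (-0.42). Without both DMSO libraries of high mitochondrial share, 7 of the 10 genes were called with DMSO, where 8119 of 16026 tested genes were, and SQSTM1, MAP1LC3B and ATG16L1 were not.

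**Figure D3:**
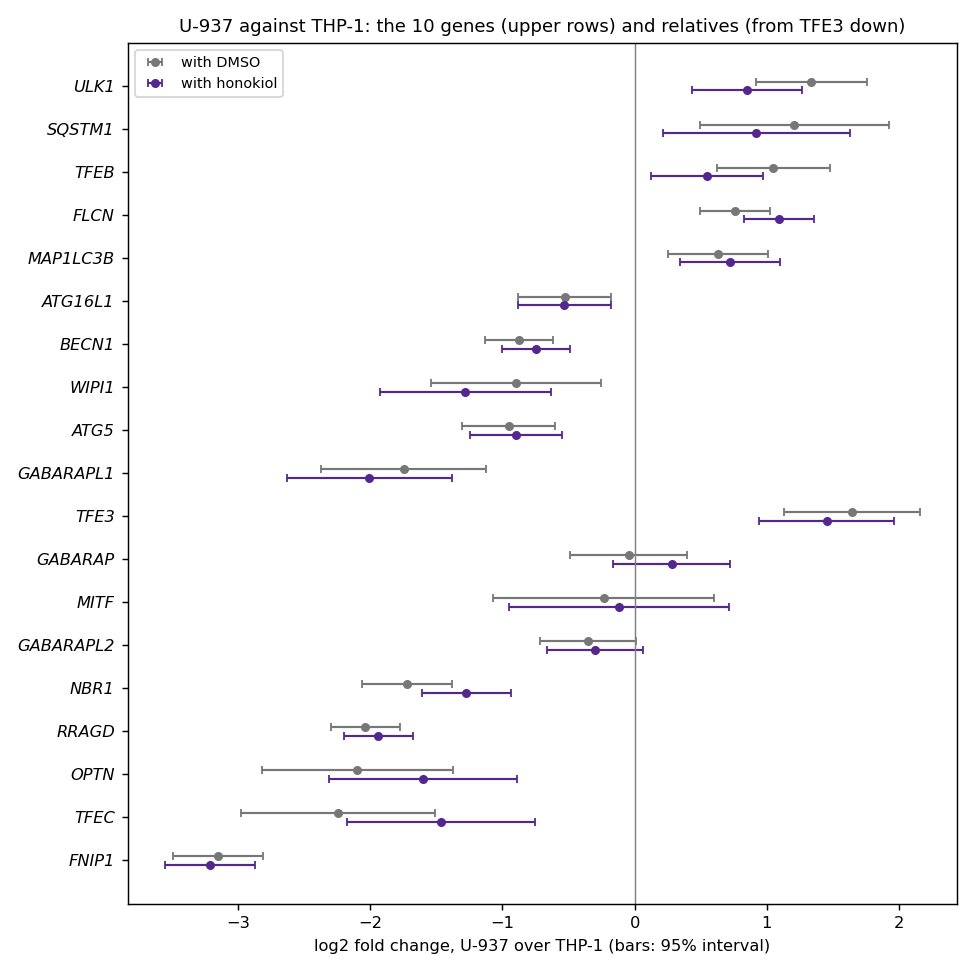
Log2 fold change of U-937 over THP-1 (horizontal axis) with its 95% interval, with DMSO (grey) and with honokiol (purple), for the 10 genes and, from TFE3 down, for relatives and partners. ULK1, SQSTM1, TFEB, FLCN and MAP1LC3B lie above 0 and the other 5 of the 10 below, GABARAPL1 farthest, while FNIP1 lies at -3.15 with DMSO.

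Of the 96 other list genes tested in the lists counted further on, 49 were called between the lines with DMSO (51.0%), 14 higher and 35 lower in U-937, a share close to the 52.9% of all tested genes. Within the ATG8 family, MAP1LC3A, which encodes LC3A, read 6.12, 15.3 and 10.3 FPKM in the THP-1 DMSO libraries and was listed at 0 in all 3 U-937 DMSO libraries and at 0 to 0.14 FPKM in those with honokiol, while GABARAP averaged 35.7 FPKM in THP-1 and 36.2 FPKM in U-937 and was not called, nor was GABARAPL2. MAP1LC3C was at or near 0 in both lines, at most 0.08 FPKM. ULK2, the paralog of ULK1, read 0.51 to 0.68 FPKM in THP-1 with DMSO and at most 0.01 FPKM in U-937, so that ULK1 was the higher of the pair in both lines. Of 12 receptors tested, 3 were higher and 5 lower in U-937 with DMSO. The higher ones were SQSTM1, RETREG1 (2.20 against 0.290 FPKM, log2 2.85) and FUNDC1, a mitophagy receptor, which averaged 7.13 FPKM in U-937 and was listed at 0 in all 6 THP-1 libraries. The lower ones were NBR1 (log2 -1.72), OPTN (-2.10), BNIP3, BNIP3L and WDFY3. FUNDC1 passed the filter on low values only through U-937, and MAP1LC3A and ULK2 only through THP-1, the line where each was high. Some other list genes also passed through a single line, which limits these counts between the lines.

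Of the MiT/TFE factors, to which TFEB belongs, TFE3 was higher in U-937 like TFEB (19.7 ± 5.47 against 6.15 ± 0.647 FPKM with DMSO, SD, n = 3 each; log2 1.64), TFEC was lower (log2 -2.25), and MITF was not called (log2 -0.23, 95% interval -1.07 to 0.60). FNIP1, which forms the complex with FLCN, averaged 0.463 FPKM in U-937 and 4.003 FPKM in THP-1 with DMSO, a log2 difference of -3.15 (adjusted p = 3.54e-08, edgeR's quasi-likelihood test), whereas FLCN itself was higher in U-937. FNIP2, the alternative partner, was at 3.38 FPKM in U-937 and 2.75 FPKM in THP-1 and was not called with DMSO. RRAGD, a Rag GTPase through which FLCN acts on TFEB, was lower in U-937 (4.16 against 16.6 FPKM, log2 -2.04), while its paralog RRAGC was higher (10.9 against 4.91 FPKM, log2 1.10). Among the partners of ATG5, ATG16L1 and BECN1, the genes ATG7 (log2 -0.55), ATG12 (-0.45) and ATG14 (-0.84) were lower in U-937 with DMSO, and PIK3C3, the lipid kinase itself, was not called (-0.04).

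The wider machinery was counted in 9 lists of 107 genes in the table, the 10 genes included. In THP-1, 0 of 104 tested list genes had an adjusted p under 0.05 in edgeR's quasi-likelihood test, while 12 were higher and 2 lower at an unadjusted p under 0.05, and the median log2 fold change was 0.05. These 14 genes are 13.5% of those tested, close to the 13.1% of all tested genes. The higher genes alone were 12 of 104, where 6.84% of all tested genes were higher, and 8 of 94 without the 10 genes. For the U-937 cells, 0 of 102 had an adjusted p under 0.05, 18 were higher and 2 lower at an unadjusted p under 0.05 (19.6%, against 16.7% of all tested genes), and the median was 0.15. There the higher genes alone were 18 of 102, where 8.25% of all tested genes were higher, and 17 of 92 without the 10 genes. The lists as a whole thus also leaned towards higher values in U-937. The lysosomal TFEB targets had medians of 0.13 (THP-1) and 0.24 (U-937), with 4 of 24 and 5 of 22 genes higher (16.7% and 22.7%, where 6.84% and 8.25% of all tested genes were higher) and none lower at an unadjusted p under 0.05. One limit of the THP-1 counts is that CTSF, among these 4, reached 0.5 FPKM only with honokiol (0.12 to 0.39 FPKM with DMSO, 0.56 to 0.76 FPKM with honokiol). It thus passed the filter only through the group where it was high. RETREG1, among the 12 higher list genes in THP-1, passed in the same way. The ULK complex had medians of -0.21 (THP-1) and -0.01 (U-937). Of the 126 genes of the KEGG list for autophagy in animals, 10 were higher and 7 lower of 120 tested in THP-1 (14.2%) and 13 higher and 3 lower of 116 in U-937 (13.8%) at that level. The KEGG list for mitophagy had 3 higher and 1 lower of 61 in THP-1 (6.56%) and 7 higher and 5 lower of 60 in U-937 (20.0%), so that the KEGG lists were near the shares of all tested genes or below them, other than mitophagy in U-937, which was somewhat above.

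**Figure D4:**
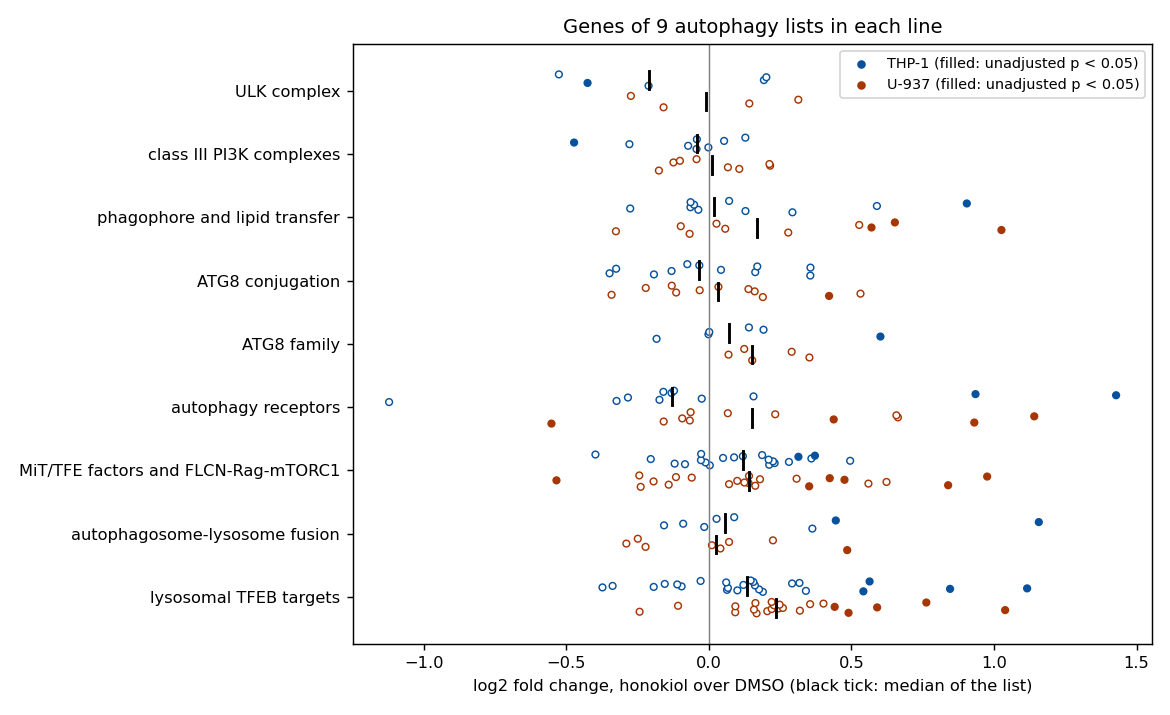
Log2 fold change of honokiol over DMSO (horizontal axis) for the tested genes of 9 autophagy lists, THP-1 in blue and U-937 in orange, filled where the unadjusted p was under 0.05; the black tick is the median of a list. Medians lie between -0.21 (ULK complex, THP-1) and 0.24 (lysosomal TFEB targets, U-937).

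Over both lines, 4 of 106 tested list genes rose with honokiol and 0 fell at an adjusted p under 0.05, where 1.57% of tested genes rose and 1.08% fell (edgeR's quasi-likelihood test). None of the 4 was among the 10 genes. RETREG1, a receptor for the autophagy of the endoplasmic reticulum, read 0.27, 0.31 and 0.29 FPKM in THP-1 with DMSO and 0.59, 0.83 and 1.06 FPKM with honokiol. In U-937 it read 1.63, 2.21 and 2.77 FPKM with DMSO and 5.49, 4.31 and 5.60 FPKM with honokiol, so the groups did not overlap in either line. Its mean log2 fold change was 1.28 with a standard error of 0.17 (adjusted p = 0.00531). CTSD, the lysosomal protease cathepsin D, averaged 297 ± 82.8 FPKM with DMSO and 552 ± 65.0 FPKM with honokiol in THP-1 (SD, n = 3 each), and 513 ± 105 FPKM and 1122 ± 152 FPKM in U-937 (SD, n = 3 each). No honokiol library of CTSD was as low as a DMSO library of its line, and its mean log2 fold change was 0.93 with a standard error of 0.14 (adjusted p = 0.00987).

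ATP6V1A, a subunit of the proton pump that acidifies the lysosome, had a mean log2 fold change of 0.51 (adjusted p = 0.0481), and RRAGD of 0.36 (adjusted p = 0.0423), both by edgeR's quasi-likelihood test. The calls of ATP6V1A and RRAGD were lost without both DMSO libraries of high mitochondrial share (adjusted p = 0.115 and 0.0688), whereas RETREG1 and CTSD kept theirs in that setting. The call of ATP6V1A was also lost when any of the 12 libraries was left out alone, other than honokiol library 1 of either line (log2 0.45 to 0.57 over the 12), and that of RRAGD when any was left out other than THP-1 DMSO library 3 (0.31 to 0.40).

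**Figure D5:**
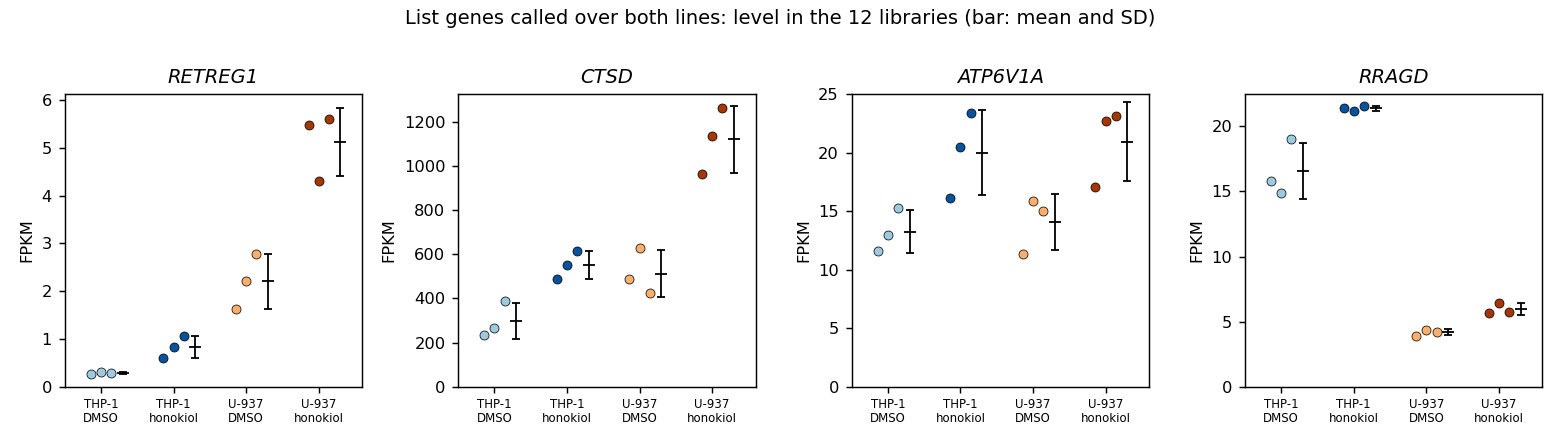
FPKM (vertical axes, from 0) of RETREG1, CTSD, ATP6V1A and RRAGD in the 12 libraries; points are libraries 1 to 3 and the bar is the mean with its SD. In each line the honokiol libraries of these genes lie above the DMSO libraries, as for RETREG1 in U-937 (1.63 to 2.77 FPKM with DMSO, 4.31 to 5.60 FPKM with honokiol).

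Other list genes with an unadjusted p under 0.05 included STX17, which fuses autophagosomes with lysosomes (log2 1.16 in THP-1, adjusted p = 0.295), the cathepsin gene CTSF (1.12 in THP-1, adjusted p = 0.335, at 0.12 to 0.76 FPKM), TECPR1 (0.45 in THP-1) and ATG13, the partner of ULK1 (-0.43 in THP-1, adjusted p = 0.354). STX17 read 0.88, 0.69 and 0.65 FPKM with DMSO and 2.38, 1.97 and 0.81 FPKM with honokiol in THP-1, so its groups overlapped. Its log2 fold change in U-937 was -0.29. PIK3C3 gave -0.47 in THP-1 and 0.21 in U-937. In U-937 they included TMEM41B, a lipid scramblase of the endoplasmic reticulum (1.03, adjusted p = 0.131), BNIP3L (0.93, adjusted p = 0.0598), TFEC (0.98, adjusted p = 0.224), FNIP2 (0.84, adjusted p = 0.207), HEXA (0.44), NBR1 (0.44), ATG12 (0.42), RPTOR, the mTORC1 subunit (-0.53, adjusted p = 0.154), and the mitophagy receptor BNIP3 (-0.55, adjusted p = 0.264). None of these passed edgeR's quasi-likelihood test with adjustment. CTSF passed the filter on low values in THP-1 only through its honokiol libraries.

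BNIP3L and PSAP are described here after their values were seen. BNIP3L, which encodes the mitophagy receptor NIX, had the lowest p-value of the list genes in U-937. There it read 5.76, 6.44 and 5.97 FPKM with DMSO and 12.77, 11.97 and 12.14 FPKM with honokiol, without overlap. It was not called by edgeR's quasi-likelihood test, but DESeq2 called it (adjusted p = 5.69e-07), as did limma and the fit of all 12 libraries. For honokiol in U-937, DESeq2 called 790 of 13726 tested genes and the main test 13. With limma 18 or 16 of 13726 were called, and in the fit of all 12 libraries 207 of 16283. In THP-1 the log2 fold change of BNIP3L was -0.32 (adjusted p = 0.521), and U-937 minus THP-1 gave 1.24 (adjusted p = 0.107, both by edgeR's quasi-likelihood test). PSAP, the precursor of the saposins of the lysosome, gave 0.56 in THP-1 (adjusted p = 0.310), 0.76 in U-937 (adjusted p = 0.185) and 0.65 over both lines (adjusted p = 0.0574, all by edgeR's quasi-likelihood test). Its honokiol libraries were all higher than the DMSO libraries of their line, and DESeq2 called it in U-937 and over both lines (adjusted p = 0.04998 and 0.00586).

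The promoters of these genes were searched for 4 motifs on both strands, in windows from 250 bases before to 50 after each start in RefSeq (GRCh38.p14). The motifs were the E-box CACGTG and the longer CLEAR-type element, which lies in promoters of TFEB targets, the antioxidant response type TGACNNNGC, and the AP-1 type TGACTCA; the CLEAR-type element includes the E-box. The 10 genes had 15 windows, of which 0 held CACGTG, against 7.26% of 35116 windows, and 1, that of MAP1LC3B, held TGACNNNGC, against 13.3%. The other motifs were in 0 of the 15 (0.353% of all windows for the CLEAR-type element, 4.95% for the AP-1 type). Not every window lies at the upstream end of its gene. That of BECN1 precedes a start at chr17:42823879, within the deposited gene (chr17:42810134-42833332, minus strand), so the upstream end of BECN1 was not searched. That of MAP1LC3B precedes a start at chr16:87392336, within the deposited gene, which begins at 87383953 (plus strand). ATG16L1 had its window before chr2:233251673, within a gene that begins at 233210051 (plus strand). The windows of GABARAPL1, ATG5 and TFEB also lie within their deposited genes. The upstream ends of these genes were not searched either. Of 93 windows of the list genes other than the 10, 21 held CACGTG, among them that of CTSD, and 19 held TGACNNNGC, among them that of CTSD and 1 window of RETREG1. The CLEAR-type element was in 3 of the 93 and the AP-1 type in 6. The lists include that of lysosomal TFEB targets, which limits what the number with CACGTG shows. The matches of the member with a match and of RETREG1 and CTSD, the called list genes with the largest mean fold change, follow, each as 30 bases on the strand of the gene, with the motif in capitals.
MAP1LC3B, chr16:87392279-87392308, plus strand, 46 to 38 bases before the start: cgcgagtcaccTGACCAGGCtgcgggctga
CTSD, chr11:1763957-1763986, minus strand, 47 to 42 bases before the start: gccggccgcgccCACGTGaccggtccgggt
CTSD, chr11:1764104-1764133, minus strand, 195 to 187 bases before the start: ctgggccgggcTGACCCCGCgggcgcgagc
RETREG1, chr5:16509051-16509080, minus strand, 71 to 63 bases before the start: cttaggtgggtGCCTAGTCAtgccagaaaa
In RETREG1 the match reads in the reverse direction. It lies before the start at chr5:16508998, which is downstream of another RETREG1 start at chr5:16616997. The 250 bases before that upstream start held none of the motifs. These are matches of letters in a window, and binding was not measured.

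Finally, the genes whose pattern over the 12 libraries was most like that of TFEB and SQSTM1 were found among 12243 genes, by Pearson's r. For TFEB these were SERTAD2 (r = 0.965), NBPF25P (0.962) and PCIF1 (0.962), and of the other 9 genes ULK1 was closest (0.958). For SQSTM1 they were ANXA1 (0.974), FTL (0.972), which encodes ferritin light chain, and TOM1 (0.965), with MAP1LC3B the closest of the other 9 (0.914). The 12 points share 4 groups and the difference between lines, so these values are given as a description.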

How the data were processed

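The 12 mRNA libraries fall into 4 groups of 3, by line (THP-1, U-937) and agent (DMSO, honokiol). The FPKM values were computed by the authors per gene and library, scaled to transcript length and library size. The estimated counts were deposited by the authors as whole numbers, are not normalized, and appear to be derived from coverage, since values of 4, 8, 12 and 16 are frequent. They may therefore overstate the number of fragments, which was not tested, and no counting interval is given. The submitters' processing notes list HISAT2 2.0, StringTie 1.3.0 and Bowtie 0.12.2, and a mouse build whose role is not given, although the gene IDs are human: of 36866 genes, 35760 were found in GENCODE 29 (GRCh38), 22470 with the same coordinates, so gene positions are as deposited and read on GRCh38.

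Estimated counts were analysed with edgeR 4.0.16 in R 4.3.3 (TMM normalization, quasi-likelihood F-test, Benjamini-Hochberg adjustment), within each line (6 libraries) and in a fit of all 12 for the mean effect, its difference and the lines. A gene was tested where 3 or more libraries of the fit reached 0.5 FPKM, and a called gene has an adjusted p under 0.05. With 3 against 3 libraries an exact permutation test of a single gene cannot go below 0.1, so the models across genes were used. Simulated counts had 200 changed genes, in equal numbers with log2 changes of 2 and of 1, up or down. The changed genes were drawn from those above a minimum mean count, so recovery of low genes was not measured. At a log2 change of 2, the THP-1 fit of 14600 genes recovered 97, the U-937 fit of 13726 recovered 99, and the fit of 16283 genes recovered 99 for the mean effect and 85 for the difference. At a log2 change of 1 these numbers were 42, 54, 84 and 12, and false calls were 13, 7, 14 and 6. Smaller changes were not simulated. Alternatives were DESeq2 1.42.0, RLE size factors (DESeq2's method), no FPKM filter, an FPKM of at least 1, limma 3.58.1 on log2(FPKM + 0.5) or log2(FPKM + 0.1), counts divided by 4, the replicate number as a block, the 12 libraries in a common fit and leaving out libraries.

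The genes and the lists were chosen with earlier results of these data known. Named are the 10 genes, a set of their paralogs and partners, near-identical copies, list genes called, and, of the list genes outside the 10 and that set with an unadjusted p under 0.05 in a line, the 3 of highest log2 fold change (RETREG1 and CTSD among them) and the 3 of lowest, which include TECPR1, ATP6V1A and HEXA because few were lower. BNIP3L, PSAP, FUNDC1, RRAGC and WDFY3 were added after their values were seen. Likeness was Pearson's r of log2(FPKM + 0.5) over genes with a mean FPKM of at least 1. Promoter sequences are from RefSeq (GRCh38.p14). The table's columns were matched to samples by their names, and 0 columns were left unmatched.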

Additional observations from a re-analysis of the deposited data

How the results depend on the processing

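Over all alternatives, 1410 values of single genes kept their direction and their side of the threshold, 62 turned sign, 52 lost a call and 27 gained one. For honokiol in THP-1, the main test called 0 of the 10 genes, DESeq2 called 2 (SQSTM1 and WIPI1), leaving out both honokiol libraries numbered 1 (a setting added after the values were seen) called 1 (SQSTM1), and leaving out each library in turn called 0 to 1. Of all tested genes, the main test called 6 of 14600, DESeq2 505 of 14600, and the setting without both honokiol libraries numbered 1 called 43 of 14233. The count at an unadjusted p under 0.05, which was 4 in THP-1, was 2 without both DMSO libraries of high mitochondrial share (also added after the values were seen) and 2 to 3 when each library was left out. Of all tested genes, 1899 of 14416 reached that level in the former setting, and 871 of 14234 to 2281 of 14284 in the latter. The same count in U-937, which was 1, was 2 in the fit of all 12 libraries, 3 without both honokiol libraries numbered 1, and 0 to 3 when each library was left out. Of all tested genes, 2660 of 16283 reached that level in the fit of all 12 and 1720 of 13380 without both honokiol libraries numbered 1. When each library was left out, the range was 1472 of 13419 to 2212 of 13461. Over both lines, where the main test called 0, DESeq2 called 3 (SQSTM1, WIPI1 and ATG16L1), leaving out both honokiol libraries numbered 1 called 1 (SQSTM1), and leaving out each library called 0 to 1. Of all tested genes, DESeq2 called 1537 of 16283 over both lines, and the setting without both honokiol libraries numbered 1 called 370 of 15914. Why DESeq2 and edgeR differed was not tested.

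In neither line did DMSO and honokiol libraries of the same replicate number deviate together, with correlations of -0.16, -0.23 and 0.15 in THP-1 and -0.19, -0.14 and -0.19 in U-937. Between the lines, same-numbered DMSO libraries gave 0.17, 0.061 and 0.17 (-0.19 to 0.061 for other numbers) and same-numbered honokiol libraries -0.0027, -0.051 and 0.015. In no pair of groups did every same-numbered pair exceed 0.1, so the numbers were not taken to pair the samples. With the replicate block, 0 of the 10 genes had an unadjusted p under 0.05 in U-937, 9 and 8 of the 10 were called between the lines with DMSO and with honokiol (main 10 in both), the calls of RETREG1, CTSD, ATP6V1A and RRAGD over both lines were all lost (adjusted p = 0.0507, 0.0516, 0.0892 and 0.141, from edgeR), and ATG5 gave 0.00 (0.001266) over both lines, where the sign differs from the main value. Of all tested genes, 1516 of 13726 had an unadjusted p under 0.05 in U-937 with that block. It called 7642 and 7215 of 16283 between the lines, with DMSO and with honokiol, and 35 over both lines.

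Signs turned only for log2 fold changes near 0 that were not called. With limma on log2(FPKM + 0.5) and log2(FPKM + 0.1), the mean effect was 0.036 and 0.043 for ULK1, 0.065 and 0.070 for BECN1, and 0.073 and 0.080 for ATG5, ATG5 in THP-1 was 0.028 and 0.030, TFEB in U-937 was 0.0039 and 0.0049, and the difference between lines for ATG16L1 was 0.047 and 0.044. Without both DMSO libraries of high mitochondrial share, the mean effect was 0.051 for ULK1, 0.023 for BECN1 and 0.014 for ATG5, BECN1 in THP-1 was 0.0078, ATG5 was 0.087 (THP-1) and -0.070 (U-937) with a difference of -0.16, TFEB in U-937 was 0.13 and FLCN in THP-1 was -0.031. Without both honokiol libraries numbered 1, the mean effect was 0.025 for ULK1 and 0.0060 for ATG5, and the difference for ATG16L1 was 0.0020. FLCN in THP-1 was -0.0037 with DESeq2, -0.0037 with RLE size factors and -0.00036 with no FPKM filter. Leaving out each library in turn gave mean effects of -0.13 to 0.068 for ULK1, -0.045 to 0.039 for BECN1 and -0.057 to 0.067 for ATG5, THP-1 values of -0.12 to 0.0078 for BECN1, -0.12 to 0.087 for ATG5 and -0.032 to 0.073 for FLCN, U-937 values of -0.070 to 0.18 for ATG5 and -0.28 to 0.13 for TFEB, and differences of -0.077 to 0.23 for MAP1LC3B, -0.069 to 0.21 for ATG5 and -0.12 to 0.11 for ATG16L1.

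The within-line fold changes of the 10 genes had standard errors of 0.13 to 0.36 on the log2 scale, which limits the differences that 3 libraries a group can show. Levels of mRNA measure neither the proteins nor autophagic flux.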
